A study of Homo sapiens with 6 samples.

Results

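ES2 is a human ovarian carcinoma cell line, labelled here as high-grade serous carcinoma. Its cultures were sequenced as 6 RNA libraries, 3 after a control siRNA and 3 after siRNAs against UAP1, and the titles number the libraries of each group 1 to 3. All 6 libraries of the series are described here, not by siRNA but by that number: 2 libraries carry the number 1, 2 carry the number 2 and 2 carry the number 3, each pair holding 1 control and 1 siUAP1 library. All cells were of the genotype labelled WT, grew in DMEM with fetal bovine serum, and received a lipid transfection reagent, so the control libraries also come from transfected cells. The transfection medium was replaced after 6 hours and RNA was taken at 48 hours. The siUAP1 label names a pair of commercial siRNAs and does not say whether they were mixed. The labels do not say whether libraries with the same number were grown, transfected or extracted together, nor whether the numbers mark separate cultures, so the p-values below rest only on how far these samples lie apart, and that spread can be technical. The library names carry further digits of no stated meaning, which are the same for both libraries of a number; some of them recur in replicates 2 and 3.

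Several programmes are known to move between cultures of one cell line. The heat shock response is driven by HSF1, a factor held inactive by chaperones and released when unfolded protein accumulates, which then binds repeats of GAA and TTC upstream of chaperone genes. Sterol genes are switched on by SREBP2 when membrane cholesterol runs low, genes of DNA replication follow E2F factors, and genes of mitosis are held down in resting cells by the DREAM complex at the cell cycle homology region of their promoters. Matrix genes, inflammatory genes and genes of the ribosome respond to density, serum and growth signals.

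The gene counts summed to 21267240 to 25972582 per library, and the library numbered 1 had the lowest total in both siRNA groups. UAP1, which makes UDP-N-acetylglucosamine and was the siRNA target, stood at 345, 357 and 444 CPM (counts scaled to a common library size) in the control libraries 1, 2 and 3, and at 21.8, 23.3 and 25.2 CPM in the siUAP1 libraries. It was 93.7%, 93.5% and 94.3% lower within the numbers, so each library matched its siRNA label. Of the ovarian carcinoma markers, KRT7 was at 271 to 613 CPM and PAX8 at 0.55 to 2.51 CPM, while MUC16, FOLR1 and SOX17 were at 0 in every library; the defining markers of the labelled serous type were thus largely absent. PTPRC and HBB, which define leukocytes and red cells, had at most 1 count in any library, and KRT5, of basal keratinocytes, had 0. KRT10, also listed as a keratinocyte marker, had a mean of 25.7 CPM over the libraries, and its locus overlaps TMEM99. CDH5, an endothelial cadherin, was at 130 to 171 CPM, while PECAM1, which also marks endothelium, was at 0.778 to 2.85 CPM.

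The replicate number separated the libraries more than the siRNA did. On a principal component analysis of log2 CPM, the first component (39% of the variance) gave scores of -21.2 (control) and -36.2 (siUAP1) to the libraries numbered 1, of -3.88 and -7.59 to those numbered 2, and of 41.9 and 27.0 to those numbered 3. The second component (24.1%) set the libraries numbered 2, at -33.4 and -25.1, apart from the other 4, at 8.55 to 19.2. The siRNA groups came apart on the third component (18.7%), where the 3 control libraries lay between 14.0 and 25.0 and the 3 siUAP1 libraries between -21.9 and -12.2.

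**Figure D1:**
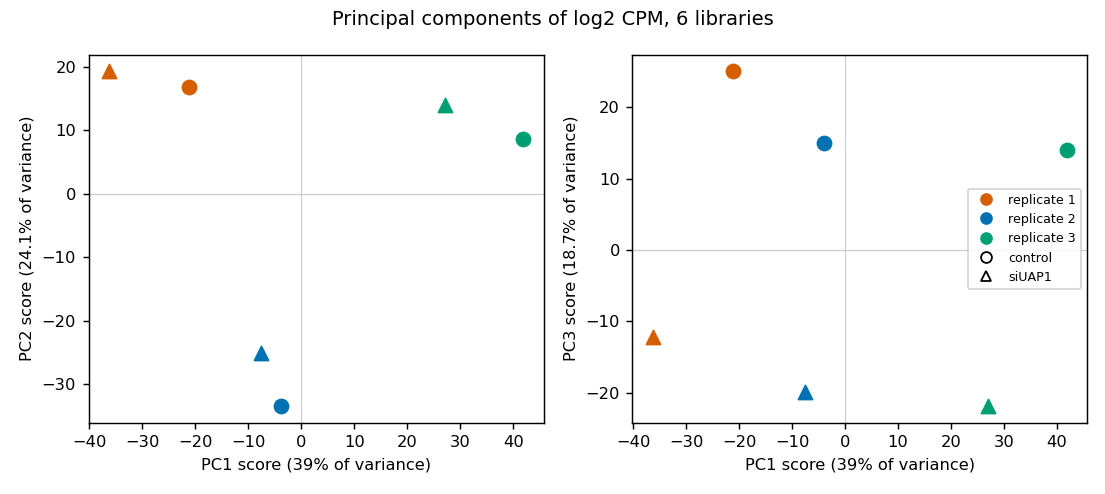
Scores of the 6 libraries on the first 3 principal components of log2 CPM (prior count 2). Colours give the replicate number and marks the siRNA group. The numbers are separated in the left panel, where the component on the y axis holds 24.1% of the variance, and the siRNA groups along the y axis of the right panel.

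For the median gene, the number held 65.6% of the sum of squares of log2 CPM, the siRNA group 12.4% and the remainder 10.1%. With equal variances the mean shares, by degrees of freedom, would be 40%, 20% and 40%. A median share can lie below its mean, so the 12.4% of the siRNA group is not to be read as low. The number held the largest share in 11065 of 15768 genes. With the siRNA group as covariate, edgeR's quasi-likelihood F test called 7232 of the 15768 genes tested, 45.9%, as differing between the 3 numbers at a Benjamini-Hochberg adjusted p of 0.05; the siRNA term of the same fit called 2556. Without the siUAP1 library numbered 3 the first of these counts was 4805.

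Each number was then set against the mean of the other 2. Replicate 1 had 2621 genes higher (16.6% of those tested) and 2603 lower (16.5%). Replicate 2 had 1718 higher (10.9%) and 1704 lower (10.8%), and replicate 3 had 2681 higher (17%) and 2451 lower (15.5%). The large differences were uneven: 355 genes were called at least 2-fold higher and 115 at least 2-fold lower in replicate 1, 240 and 50 in replicate 2, and 36 and 542 in replicate 3. Scaled by library totals alone, replicate 3 had 2004 genes higher and 2803 lower. Single libraries weighed on these counts: replicate 1 had 5224 calls in all and 3412 without its siUAP1 library. Replicate 2 had 3422, against 1649 without control replicate 2, 1865 without siUAP1 replicate 2, 2272 without control replicate 3 and 2044 without siUAP1 replicate 3. Replicate 3 had 5132, against 2142 without its control and 1930 without its siUAP1 library.

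Since these 3 contrasts share libraries, the text below relies on a stricter count: a gene is called above or below both other numbers only where both pairwise tests of the same fit pass in the same direction. Replicate 1 lay above both others in 1261 genes (8%) and below both in 1281 (8.12%). Replicate 2 lay above both in 480 (3.04%) and below both in 542 (3.44%). Replicate 3 lay above both in 978 (6.2%) and below both in 1095 (6.94%). As a plain reading of the values, both libraries of replicates 1, 2 and 3 lay above all 4 others in 15.1%, 10.4% and 16% of the genes tested, and below all 4 in 16.2%, 10.2% and 14.9%.

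These stricter counts moved with single libraries. Replicate 1 lay above both in 816 genes without control replicate 3, and below both in 826 without control replicate 3, 777 without siUAP1 replicate 2 and 792 without siUAP1 replicate 3. Replicate 2 lay above both in 270 genes without control replicate 2, 267 without control replicate 3 and 257 without siUAP1 replicate 3. It lay below both in 269, 241 and 163 genes without the same libraries, and in 333 without siUAP1 replicate 2. Replicate 3 lay above both in 497 genes without control replicate 2, 374 without control replicate 3 and 201 without siUAP1 replicate 3, and below both in 723, 597 and 534. Counts of list members in those settings are to be read against these lower totals. Genes that the naming rule gave have both libraries of their number beyond the other 4 by that choice.

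Most differences had the same sign in both siRNA groups. Over 10906 genes with a mean of at least 5 CPM, the log2 difference of a number from the other 2 among control libraries correlated across genes with that among siUAP1 libraries at r = 0.801 for replicate 1, 0.722 for replicate 2 and 0.816 for replicate 3. Genes are not independent replicates, so these coefficients describe the libraries. The sign was the same for 79.2%, 75.7% and 79.7% of these genes in replicates 1, 2 and 3, and opposite for the rest. Of 99 genes at least 2-fold apart in control replicate 1, 99 had the same sign in siUAP1 replicate 1. The same held for 64 of 66 genes in replicate 2 and 130 of 131 in replicate 3. Whether any gene's number difference depends on the siRNA cannot be tested with 1 library for each combination.

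**Figure D2:**
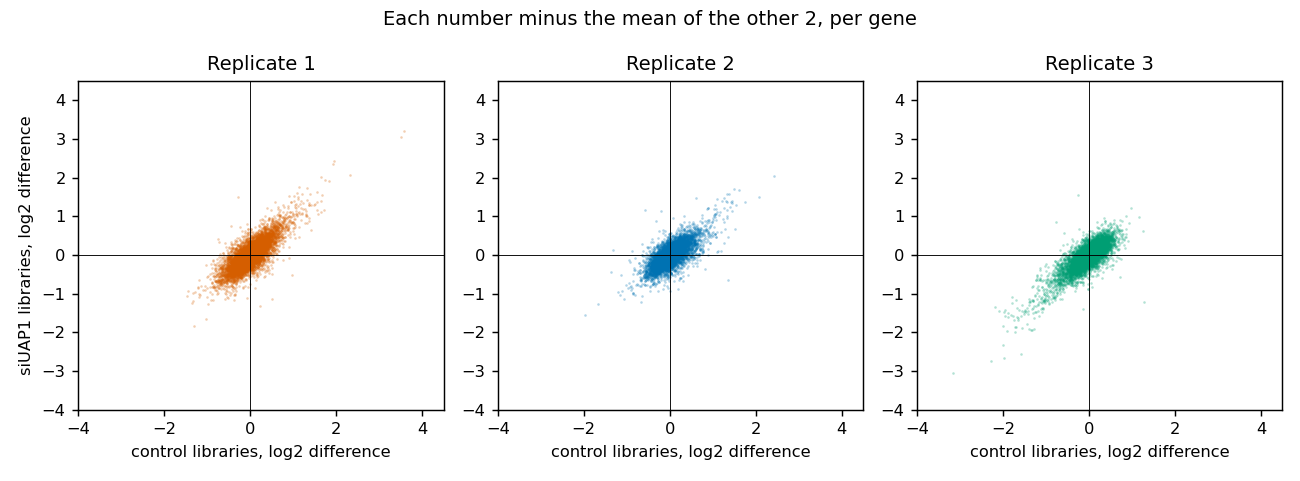
Log2 difference of each replicate number from the mean of the other 2, for 10906 genes, in control libraries (x axis) against siUAP1 libraries (y axis). Points gather along the diagonal, with r of 0.801, 0.722 and 0.816, and the long tail lies upward for replicate 1 and downward for replicate 3.

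Heat shock genes held the largest differences of replicate 1 among the genes that the naming rule gave. The 2 genes most raised there encode inducible HSP70, and its partner HSP40 was about level with the next genes. In the RefSeq promoter windows (250 bases before to 50 after each gene's start, GRCh38.p14), 17 of the 18 heat shock genes tested had an entry. A pair of facing HSF1 units, GAANNTTC or TTCNNGAA on either strand, was found in 12 of them (70.6%), against 14% of the 11157 tested genes with an entry and 13.5% of all 35116 windows. The full heat shock element, in which a further GAA follows the pair GAANNTTC after any 2 bases and which so contains both pairs, was found on either strand in 6 (35.3%), against 0.502% of tested genes and 0.49% of all windows. Stretches of 30 bases from 5 of these windows are shown, on the gene's own strand from 5′ to 3′. They were taken since they come from the list that holds the genes most raised in replicate 1. Capitals mark only the match nearest the gene's start, and a further match can overlap it in lower case. In HSPA1A (chr6:31815426-31815455, plus strand) and HSPA1B (chr6:31827622-31827651, plus strand) the pair begins 106 and 105 bases before the start.
HSPA1A: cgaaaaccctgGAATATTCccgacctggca
HSPA1B: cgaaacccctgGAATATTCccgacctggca
The full element begins 50 bases before the start of CHORDC1 (chr11:90223078-90223107, minus strand), 55 before that of HSPA8 (chr11:123062170-123062199, minus strand) and 88 before that of HSP90AA1 (chr14:102087111-102087140, minus strand).
CHORDC1: aaattcgcGAAGGTTCCTGAAacgcaacgg
HSPA8: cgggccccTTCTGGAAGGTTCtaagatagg
HSP90AA1: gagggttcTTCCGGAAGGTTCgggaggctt
A match describes the letters of the window and is no evidence that HSF1 was bound. The pair of units also stood in 8 of 23 interferon-stimulated genes with a window (34.8%).

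HSPA1B, an inducible HSP70 (ENSG00000204388, chr6:31827735-31830255), stood at 427, 37.5 and 33.6 CPM in control replicates 1, 2 and 3, and at 291, 36.7 and 26.6 CPM in siUAP1 replicates 1, 2 and 3. Its near-identical neighbour HSPA1A (ENSG00000204389, chr6:31815464-31817946) stood at 489, 39.0 and 47.9, and at 328, 39.1 and 39.3 CPM in the same order. Both libraries numbered 1 were several times above all 4 others. The log2 differences of replicate 1 were 3.41 (SE 0.0659, adjusted p = 2.6e-22) and 3.29 (SE 0.0683, adjusted p = 7.2e-22); reads may be shared between these copies, so their split is uncertain.

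DNAJB1, the HSP40 that loads substrates onto HSP70, followed the same order, with 679, 140 and 132 CPM in control and 519, 129 and 119 CPM in siUAP1 libraries. HSPH1, which exchanges nucleotide on HSP70, was at 618, 243 and 321, and at 536, 221 and 297 CPM. CHORDC1, a partner of HSP90, was at 370, 152 and 203, and at 322, 126 and 191 CPM. In HSPH1 and CHORDC1 the 3 numbers did not overlap at all: replicate 1 was highest, replicate 3 between and replicate 2 lowest, with replicate 1 differing from the others by 1.11 (SE 0.0472) and 1.06 (SE 0.0492) on the log2 scale.

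All 18 heat shock genes tested, of 19 listed, passed the F test. Replicate 1 lay above both other numbers in 13 of the 18, with a median log2 difference of 0.44 against 0.00273 over all genes. Replicate 2 lay below both others in 10 of the 18. The constitutive HSP70 HSPA8, chosen after its values were seen, stood at 2420, 1556 and 1943, and at 2121, 1423 and 1885 CPM, in the same order as HSPH1. HSP90AA1, likewise chosen afterwards, was lowest in replicate 2 (2228 and 1960 CPM) and differed less between replicates 1 (3631 and 2861) and 3 (3113 and 3043), whose pairwise adjusted p was 0.46. The count of 10 below both in replicate 2 was 6 without control replicate 2 and 4 without siUAP1 replicate 3.

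**Figure D3:**
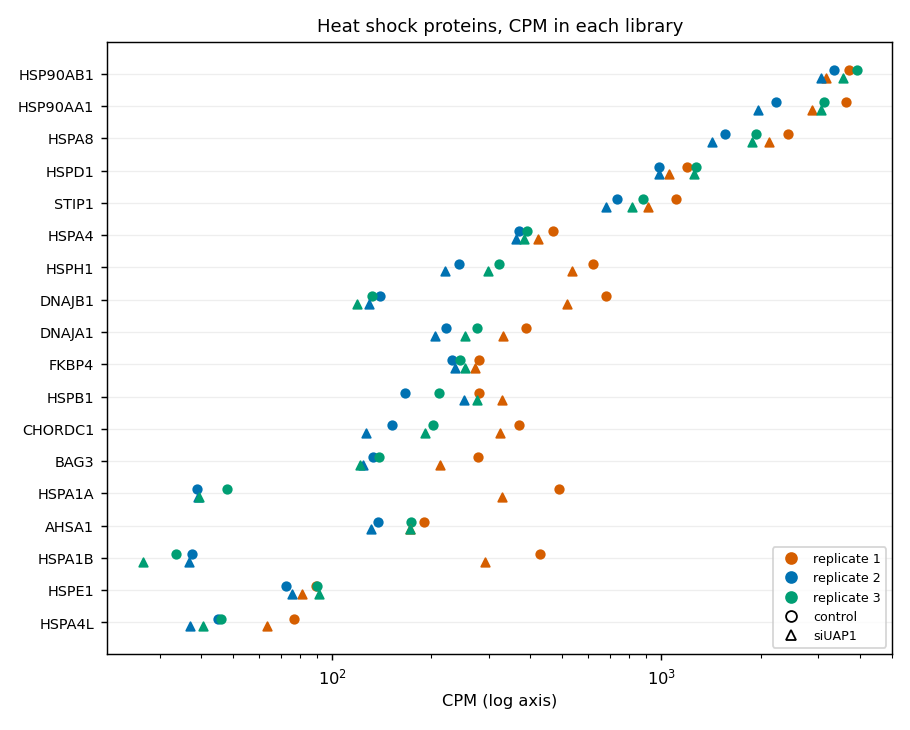
CPM of the 18 heat shock genes tested, 1 row a gene, on a log axis. Colours give the replicate number, circles control and triangles siUAP1 libraries. HSPA1A and HSPA1B show the widest gap, with replicate 1 at 291 to 489 CPM and the other 4 libraries at 26.6 to 47.9 CPM.

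RBM3, an RNA-binding protein known as a cold-inducible gene, was the most reduced gene of replicate 1 under the naming rule (ENSG00000102317, chrX:48574449-48579066). It stood at 56.2, 121 and 163 CPM in control and at 38.1, 118 and 157 CPM in siUAP1 libraries. Replicate 1 was below all 4 others and replicate 3 above all 4, with a log2 difference of -1.57 (SE 0.0786, adjusted p = 1.2e-13) for replicate 1 and 1.10 (SE 0.069) for replicate 3.

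Of the chaperones and degradation factors of the endoplasmic reticulum, 12 of 23 tested lay above both other numbers in replicate 1 and 1 below both (median log2 difference 0.25). HERPUD1, which serves the degradation of misfolded proteins at that membrane, was at 165, 49.8 and 61.0, and at 116, 49.3 and 61.8 CPM. HSPA5, the main HSP70 of that compartment, was at 1942, 927 and 962, and at 1422, 987 and 1107 CPM. Both were highest in the libraries numbered 1 without overlap, and MANF, a secreted stress factor, and DNAJB9, a cochaperone of HSPA5, showed log2 differences of 0.65 (SE 0.0614) and 1.35 (SE 0.111). The DNAJB9 locus overlaps PNPLA8, so its counts are less certain.

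Genes of the integrated stress response, run by ATF4 when translation initiation is curbed, were less uniform. In replicate 1, 12 of 38 lay above both others and 1 below both; the first count was 7 without control replicate 3 and 7 without siUAP1 replicate 3. DDIT3, a transcription factor of that response which overlaps MARS, was at 19.9, 8.57 and 9.54, and at 15.6, 7.62 and 11.5 CPM. STC2, a secreted glycoprotein, and GDF15, a stress cytokine, differed in replicate 1 by 0.77 (SE 0.0557) and 1.14 (SE 0.145). DDIT4, an inhibitor of mTORC1 listed among hypoxia genes, was at 28.1, 9.95 and 7.13, and at 28.3, 12.7 and 12.6 CPM. Of 24 hypoxia genes tested, 8 lay above both others in replicate 1 and 1 below both, with a median log2 difference of 0.21; the count of 8 was 5 without siUAP1 replicate 2. P4HA2, a collagen prolyl hydroxylase, rose by 0.72 (SE 0.0649) in replicate 1, while PDK1, which closes pyruvate dehydrogenase, fell by 0.72 (SE 0.0696) there. The P4HA2 locus overlaps PDLIM4, so its counts are less certain.

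Genes of cholesterol synthesis and uptake were higher in replicate 1 nearly throughout. All 25 were tested, 21 lay above both other numbers in replicate 1 and none below both, and the median log2 difference was 0.49. MSMO1, which removes methyl groups from sterol precursors, was at 150, 77.6 and 100.97, and at 214, 107 and 128 CPM. INSIG1, the membrane protein that holds back SREBP processing, was at 277, 154 and 185, and at 438, 235 and 280 CPM. DHCR7, which makes cholesterol in the last step of 1 branch, was at 2089, 1370 and 1217, and at 2806, 1764 and 1543 CPM. Within each siRNA group replicate 1 was the highest of the 3 in all of these, but siUAP1 libraries also stood higher, so that for INSIG1 control replicate 1 lay below siUAP1 replicate 3. MVD, of the mevalonate steps, differed by 0.68 (SE 0.0525). The summed CPM of the 25 genes was 5079, 3503 and 3471 in control and 6445, 4194 and 4168 in siUAP1 libraries.

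Genes of fatty acid synthesis moved with them in part. Replicate 1 lay above both others in 8 of 14 tested, and replicate 3 below both in 4. FASN, the fatty acid synthase, was at 1554, 1117 and 868, and at 2190, 1538 and 1036 CPM, and FADS2, a desaturase, at 71.6, 57.2 and 40.0, and at 93.8, 75.1 and 53.3 CPM. The FADS2 locus overlaps FADS1 and FEN1, so its counts are less certain. SCD, which introduces the first double bond, differed by 0.45 (SE 0.0518) in replicate 1. The count of 8 was 5 without control replicate 2, and that of 4 was 2 without siUAP1 replicate 3.

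Inflammatory genes were high in replicate 1 or low in replicate 3, and not all in the same way. Among 24 targets of NF-kB, 13 lay above both others in replicate 1 and 9 below both in replicate 3; the second count was 4 without siUAP1 replicate 3. CCL2, a monocyte chemokine (ENSG00000108691, chr17:34255218-34257203), was level in replicates 1 and 2 and low in replicate 3: 40.7, 42.0 and 4.55 CPM in control and 43.5, 50.6 and 5.61 CPM in siUAP1 libraries. The log2 difference of replicate 3 was -3.12 (SE 0.101, adjusted p = 6.3e-17), the largest of any named gene there, and replicates 2 and 1 differed by 0.13 (adjusted p = 0.27).

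BIRC3, an inhibitor of apoptosis, was at 58.5, 28.5 and 19.0, and at 75.1, 36.0 and 21.9 CPM. PTX3, a soluble pattern receptor, was at 2194, 1148 and 913, and at 1615, 619 and 447 CPM. Both were highest in replicate 1 and lowest in replicate 3 within each siRNA group. IL1B, the cytokine, ran 43.5, 31.3 and 17.0, and 93.8, 65.1 and 33.7 CPM, so the siRNA groups overlapped across numbers. TLR4, a receptor for bacterial lipopolysaccharide, was at 7.20, 6.01 and 2.13, and at 6.40, 7.77 and 1.14 CPM. Beside these values, the 6 leukocyte markers summed to 0.123 to 0.879 CPM, and CD3E and ITGAM were at 0 in every library.

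Interferon-stimulated genes were split. Of 29 tested, 4 lay above both others in replicate 1, 4 above both in replicate 2 and 6 below both in replicate 3. Over all genes tested, these shares were 8%, 3.04% and 6.94%. With 1 library left out, as in the next counts, fewer genes of all kinds were called. The count of replicate 1 was 2 without control replicate 3 or any 1 siUAP1 library, and that of replicate 2 was 2 without control replicate 1 or 2. OAS3, an antiviral enzyme, was highest in replicate 2 (16.0 and 21.7 CPM) and lowest in replicate 3 (5.98 and 6.91). DDX58, which encodes the RNA sensor RIG-I, was lowest in replicate 2 (48.9 and 47.0 CPM, against 76.9 and 85.1 in replicate 1).

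Genes induced by glucocorticoids, which serum contains, were mostly high in replicate 1. Of 10 tested, 8 lay above both others there, 1 lay below both, and the median log2 difference was 0.61; the count of 8 was 5 without control replicate 1 and 5 without siUAP1 replicate 2. DUSP1, a phosphatase that switches off MAP kinases and is also an immediate early gene, was at 320, 108 and 112, and at 349, 102 and 124 CPM. SGK1, a kinase, and ERRFI1, an inhibitor of the EGF receptor, differed by 0.76 (SE 0.0557) and 0.58 (SE 0.0471). FKBP5, a chaperone of the receptor itself, went the other way, at 37.3, 63.4 and 53.6, and at 36.3, 64.2 and 55.1 CPM.

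Other genes that the rule gave for replicate 1 belonged to none of the lists above. EREG, a ligand of the EGF receptor, was at 169, 63.0 and 31.7, and at 339, 91.4 and 48.1 CPM, with a log2 difference of 2.15 (SE 0.0657) in replicate 1. SLC5A3, the myo-inositol transporter that cells use as an osmolyte carrier, was at 220, 65.9 and 48.4, and at 260, 52.2 and 44.9 CPM; it overlaps MRPS6. MASP1, a complement protease, was at 12.2, 4.95 and 2.29, and at 17.0, 7.27 and 2.75 CPM. All 3 of these genes were also lower in replicate 3 than in replicate 2 within each siRNA group. Of 16 ERK feedback genes, 6 lay above both others in replicate 1 and none below both, among them EPHA2 and DUSP4 with log2 differences of 0.69 (SE 0.0494) and 0.54 (SE 0.053). TXNIP, a glucose-responsive arrestin, separated all 3 numbers, at 237, 124 and 189, and at 304, 158 and 229 CPM.

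Genes of mitosis and of DNA replication were low in replicate 1. Of the 35 genes of G2 phase and mitosis tested, 32 lay below both other numbers in replicate 1, none above both, and 13 lay above both in replicate 3. Of the 33 genes of G1/S and DNA replication, 22 lay below both in replicate 1, none above both, and 6 above both in replicate 2. The 13 mitosis genes were 2 without control replicate 2, 1 without control replicate 3, 7 without siUAP1 replicate 2 and 2 without siUAP1 replicate 3, and 5 after offsets for GC content and length. Over all genes tested, the share above both in replicate 3 went from 6.2% to 3.15%, 2.37%, 4.64%, 1.27% and 5.06% in these settings. The list median was 0.26 to 0.30 with any 1 library left out and 0.21 with the offsets. The 6 replication genes were 1 without siUAP1 replicate 2 or 3. The median log2 differences of replicate 1 were -0.37 and -0.36. Bulk counts cannot tell fewer cells of a kind, here dividing ones, from less RNA per cell.

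Histone cluster genes, which encode packaging proteins of chromatin, leaned upward in replicate 1. Of 32 listed, 13 passed the filter on low counts. Of those tested, 6 passed the F test (46.2%), about the share over all genes (45.9%). In replicate 1, 5 lay above both others and none below both, with a median log2 difference of 0.82. The labels name poly(A) RNA, and what part of the histone RNA that covers was not tested. The count of 5 was 3 without control replicate 3, 2 without siUAP1 replicate 1 and 2 without siUAP1 replicate 3. The list summed to 31.2, 18.2 and 20.1 CPM in control and to 50.2, 22.9 and 28.0 CPM in siUAP1 libraries, so the libraries numbered 1 were the highest.

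Words that the regulators of these lists are known by were searched in the promoters. The cell cycle homology region TTTGAA, searched on both strands, stood in 21 of the 30 mitosis genes with a RefSeq window (70%), against 14% of tested genes and 15.2% of all windows. The E2F word TTTNGCGC stood in 10 of the 28 replication genes with a window (35.7%), against 3.64% and 1.79%. It was not found in the others of that list. A sterol word searched for the cholesterol genes, TCACNCCAC, stood in 1 of 18 windows (5.56%), against 1.42% of tested genes and 1.13% of all windows. TTTGAA can share its last letters with a heat shock pair. Stretches of 30 bases on the gene's own strand are given for KIF11, HMMR and MCM6, since their values stand for both lists below. Capitals mark only the match nearest the gene's start, and HMMR holds a further match in lower case. The stretch of KIF11 lies at chr10:92593090-92593119 and that of HMMR at chr5:163460598-163460627, both on the plus strand.
KIF11: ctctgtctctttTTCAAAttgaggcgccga
HMMR: gggagatttgaaTTTGAAaccggtagggag
That of MCM6 lies at chr2:135876511-135876540 on the minus strand, in GRCh38.p14 as the others.
MCM6: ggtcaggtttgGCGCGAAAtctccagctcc

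KIF11, the kinesin that pushes spindle poles apart, was at 89.2, 156 and 166 CPM in control and at 92.8, 164 and 163 CPM with siUAP1, a log2 difference of -0.84 (SE 0.0532, adjusted p = 1.3e-11) in replicate 1. HMMR, a spindle and hyaluronan-binding protein, was at 78.7, 106 and 127, and at 68.4, 91.4 and 118 CPM. MKI67, a proliferation antigen, was highest in replicate 2, at 265, 410 and 337, and at 231, 387 and 265 CPM. For KIF11 the libraries numbered 1 lay far below the other 4, while for MKI67 siUAP1 replicate 3 came down to the level of control replicate 1.

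RRM2, the subunit of ribonucleotide reductase made in S phase, was at 59.4, 100 and 96.6, and at 53.3, 96.9 and 73.0 CPM. PCNA, the DNA sliding clamp, was at 122, 171 and 176, and at 113, 176 and 169 CPM. MCM6, of the replicative helicase, differed by -0.56 (SE 0.0548). In RRM2 and PCNA both libraries numbered 1 were below all others. Among the genes of the naming rule, U2SURP, a splicing factor, was also low there, at 99.0, 177 and 181, and at 96.6, 178 and 172 CPM. RBM43, CAMKK1, CCDC36 and GPR3, which had at most 5.69 CPM in replicate 1 and 8.36 to 15.0 CPM elsewhere, were also in that group.

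The mRNAs of the mitochondrial genome marked replicate 2. All 13 mRNAs encoded there passed the F test, 12 lay above both other numbers in replicate 2, and 9 lay below both in replicate 1. The median log2 difference of replicate 2 was 0.45. MT-ND6, the only protein gene of the light strand, was at 388, 703 and 384 CPM in control and at 432, 702 and 471 CPM in siUAP1 libraries. MT-CYB, of complex III, was at 737, 1480 and 872, and at 931, 1427 and 1102 CPM, and MT-ATP8, which overlaps MT-ATP6, was at 29.6, 59.6 and 37.8, and at 34.2, 67.8 and 39.7 CPM. Both libraries numbered 2 were above the other 4 in each. The count of 12 was 6 without control replicate 2 and 5 without control replicate 3; that of 9 was 4 without control replicate 3, 1 without siUAP1 replicate 3 and 1 after offsets for GC content and length, where the median went from -0.34 to -0.23. The mitochondrial ribosomal RNA MT-RNR1 shared the peak in replicate 2 and was lowest in replicate 3, at 1104, 1478 and 740, and at 1029, 1415 and 805 CPM. Mitochondrial genes took 6.02% and 5.64% of all counts in replicate 2 and 4.23% to 4.79% in the other libraries.

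Other genes peaked in replicate 2 and were lowest in replicate 3. NCAM2, a neural adhesion molecule, was at 14.0, 30.3 and 10.2, and at 14.3, 38.0 and 11.1 CPM. PTGS1, the constitutive cyclooxygenase, was at 85.9, 129 and 39.4, and at 100, 134 and 42.5 CPM. NNMT, which methylates nicotinamide, was at 16.1, 28.1 and 6.76, and at 18.8, 30.7 and 7.42 CPM. None of the 3 genes overlapped between numbers. SPOCK1, a matrix proteoglycan, CSMD2, a membrane protein, and HAPLN3, a linker of hyaluronan, had log2 differences of 1.09 (SE 0.0661), 1.59 (SE 0.138) and 1.44 (SE 0.164) in replicate 2. On the low side of replicate 2, outside the heat shock genes, NUPR1, a stress-induced chromatin protein, was at 6.44, 2.91 and 5.98, and at 7.87, 3.33 and 7.11 CPM, and MYH15, a myosin, differed by -1.10 (SE 0.156). P2RY11, which overlaps EIF3G, differed by -1.08 (SE 0.175).

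Matrix genes were low in replicate 3. Of 41 collagens and matrix proteins tested, 25 lay below both other numbers there and none above both; 8 lay above both in replicate 2 and 10 in replicate 1. The count of 8 was 5 without control replicate 1 and 4 without control replicate 2. The median log2 difference of replicate 3 was -0.39. THBS1, a glycoprotein that activates latent TGF-beta (ENSG00000137801, chr15:39581079-39599466), was at 154, 221 and 68.5 CPM in control and at 253, 349 and 104 CPM in siUAP1 libraries. LAMA4, a laminin chain of vessel and muscle basement membrane, was at 133, 152 and 59.97, and at 135, 128 and 52.3 CPM. FBN1, the microfibril protein, was at 121, 147 and 64.7, and at 173, 195 and 82.5 CPM. Both libraries numbered 3 lay below the other 4 in each of the 3 genes.

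COL5A2, a chain of the fibril-seeding collagen, and FN1, fibronectin, fell by 1.16 (SE 0.0584) and by 0.77 (SE 0.0555) on the log2 scale in replicate 3. CEMIP, which breaks down hyaluronan and overlaps MESD, was at 27.0, 15.4 and 4.14, and at 54.6, 32.2 and 6.24 CPM. MRC2, a receptor that takes up collagen, was at 44.5, 48.4 and 11.6, and at 56.3, 56.1 and 15.8 CPM. VIM, the intermediate filament of mesenchymal cells, went the other way and was highest in replicate 3, with 1700, 2112 and 2414, and 1564, 1908 and 2151 CPM.

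Targets of TGF-beta followed the matrix genes in replicate 3 and stood high in replicate 1. Of 20 tested, 9 lay above both others in replicate 1, and 7 below both in replicate 3; the second count was 4 without control replicate 3. TIMP3, a matrix-bound inhibitor of metalloproteases, was at 631, 631 and 303, and at 1523, 1282 and 597 CPM. CDKN2B, the inhibitor p15, was at 53.3, 25.9 and 18.3, and at 60.4, 31.7 and 28.0 CPM, and ID3 and SNAI2 differed by 0.96 (SE 0.075) and 0.68 (SE 0.0627) in replicate 1. Both TIMP3 libraries numbered 3 were below all others, while replicates 1 and 2 overlapped. CTGF, from the list of YAP targets, was called above both others in replicate 3, by 0.46 (SE 0.0514), although its libraries overlapped.

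Ribosomal protein genes were high in replicate 3 by small and even amounts. All 78 were tested, 61 lay above both other numbers in replicate 3, none below both, and the median log2 difference was 0.27. RPS20 was at 752, 693 and 937 CPM in control and at 680, 664 and 940 CPM in siUAP1 libraries. RPL10, which overlaps DNASE1L1, was at 1264, 1163 and 1584, and at 1075, 1135 and 1531 CPM. RPS15A and RPL21 differed by 0.40 (SE 0.0513) and 0.40 (SE 0.0496). Both libraries numbered 3 were above the other 4 in RPS20 and RPL10, and ribosomal protein genes together took 7.17% and 7.13% of the counts in replicate 3 against 5.79% to 6.27% in the rest. The number of calls leaned on single libraries: it was 11 without siUAP1 replicate 3, 29 without control replicate 3 and 38 without control replicate 2. The share over all genes went from 6.2% to 1.27%, 2.37% and 3.15% in the same settings, and the list median was 0.25, 0.30 and 0.24.

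Genes of ribosome biogenesis and nuclear genes of oxidative phosphorylation moved less. Of 30 ribosome biogenesis genes, 4 lay above both others in replicate 3 and 8 below both in replicate 1. Without siUAP1 replicate 3 the first count was 0, without control replicate 2 it was 2, and without siUAP1 replicate 2 the second was 5. NPM1, the abundant nucleolar chaperone, was at 1408, 1490 and 1875, and at 1309, 1472 and 1891 CPM. PES1, of the large subunit pathway, rose by 0.39 (SE 0.0511) in replicate 3, and NOP58, of the snoRNA particle, fell by 0.44 (SE 0.0544) in replicate 1. Of 67 nuclear genes of oxidative phosphorylation, 15 lay above both others in replicate 3, a count of 1 without siUAP1 replicate 3, 9 without control replicate 2, 24 without control replicate 1 and 6 after offsets for GC content and length. ATP5MC3 and ATP5PB, of the ATP synthase, rose by 0.37 (SE 0.0546) and 0.33 (SE 0.0488).

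Other genes of the naming rule raised in replicate 3 belonged to no list. UPP1, uridine phosphorylase, was at 64.8, 68.3 and 104, and at 70.6, 75.7 and 117 CPM. IL13RA2, a decoy receptor of IL-13, was at 21.7, 23.2 and 38.5, and at 16.5, 18.7 and 32.3 CPM. TAF7, a subunit of TFIID, was at 57.9, 61.8 and 94.1, and at 50.6, 58.1 and 88.7 CPM. In these genes the difference between replicates 1 and 2 did not pass the pairwise test (adjusted p = 0.34, 0.34 and 0.12 for UPP1, IL13RA2 and TAF7). The zinc finger genes ZNF273 and ZNF138 were raised by 0.94 (SE 0.149) and 0.82 (SE 0.142).

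Most long nuclear RNAs were low in replicate 3. Of 6 tested, 4 lay below both other numbers there, against 6.94% of all genes. Against the mean of the other 2 numbers, 1 was called higher in replicate 3. In replicate 1, 1 lay below both others. The median transcript length of the list was 10548 bases, against 3272 for all genes tested. NEAT1, the RNA that builds paraspeckles, was at 251, 198 and 105, and at 403, 195 and 150 CPM. MALAT1, of nuclear speckles, was at 95.5, 72.7 and 52.0, and at 118, 76.7 and 61.7 CPM. For both, each number kept its own range, with replicate 1 highest and replicate 3 lowest.

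Length and base composition of the transcripts moved with the numbers. Length and GC content were taken from each gene's longest annotated transcript, over 10338 protein-coding genes with a mean of at least 5 CPM. The difference of replicate 3 had a Spearman coefficient across these genes of -0.298 with length and -0.183 with GC content. The corresponding values were 0.136 and 0.194 for replicate 1, and 0.189 and -0.0424 for replicate 2. From the shortest to the longest of 5 equal groups of genes, the median log2 difference of replicate 3 went from 0.12 to -0.07. The lists differed in this respect. The median length was 10548 bases for long nuclear RNAs, 5811 for matrix genes, 1842 for ribosomal proteins, 2546 for heat shock genes and 3272 for all tested. With offsets for GC content and length, an alternative chosen after seeing the data, the members called were 20 instead of 25 for matrix genes in replicate 3, 44 instead of 61 for ribosomal proteins in replicate 3 and 13, as before, for heat shock genes in replicate 1. Mitochondrially encoded mRNAs had 13 instead of 12 above both in replicate 2 and 1 instead of 9 below both in replicate 1. Beyond these offsets, the part of length in the results was not tested.

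**Figure D4:**
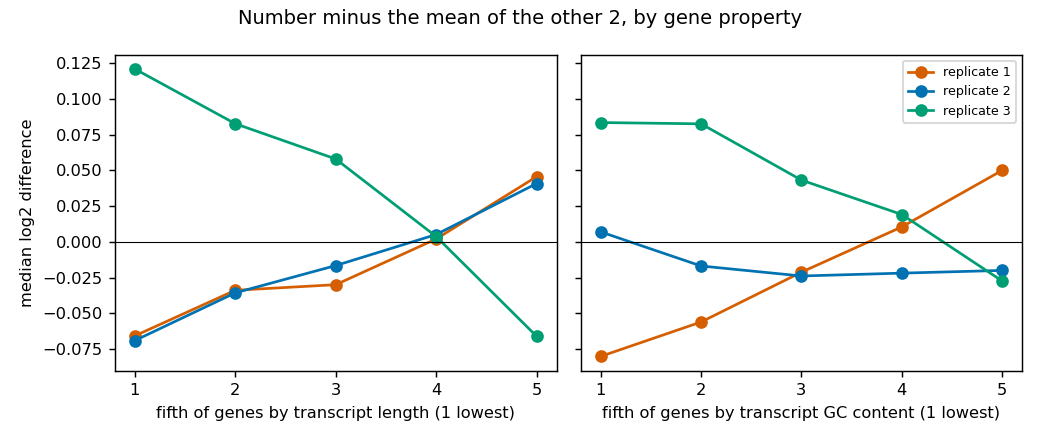
Median log2 difference of each number from the mean of the other 2, by transcript length (left) and by GC content (right). Protein-coding genes with a mean of at least 5 CPM were split in 5 equal groups. Replicate 3 goes down with length, from 0.12 to -0.07, and replicates 1 and 2 go up.

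Some programmes had members on both sides in replicate 1. Over all genes tested, 45.9% passed the F test, and 8% lay above and 8.12% below both others in replicate 1. Of 22 p53 targets tested, 8 passed the F test (36.4%). Of the 22, 2 lay above and 3 below both others in replicate 1, and none in either direction in replicate 3. Of 23 actin and focal adhesion genes, 12 passed the F test (52.2%), and 2 lay above and 4 below both others in replicate 1. Their median log2 differences were -0.00206, 0.01 and 0.01 in replicates 1, 2 and 3. Of 21 genes of glycolysis and glucose uptake, 13 passed the F test (61.9%), and 3 lay above and 4 below both others in replicate 1. PFKFB3, which makes the activator of phosphofructokinase, rose there by 0.50 (SE 0.0499). Clock genes leaned more to 1 side. None lay below both others in replicate 1, and 3 lay below both and none above both in replicate 3. Among clock genes, 5 of 19 lay above both others in replicate 1, with ARNTL and NFIL3 at 0.47 (SE 0.0866) and 0.50 (SE 0.0897); the count was 2 without siUAP1 replicate 3 and 3 without control replicate 3, siUAP1 replicate 1 or siUAP1 replicate 2.

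**Figure D5:**
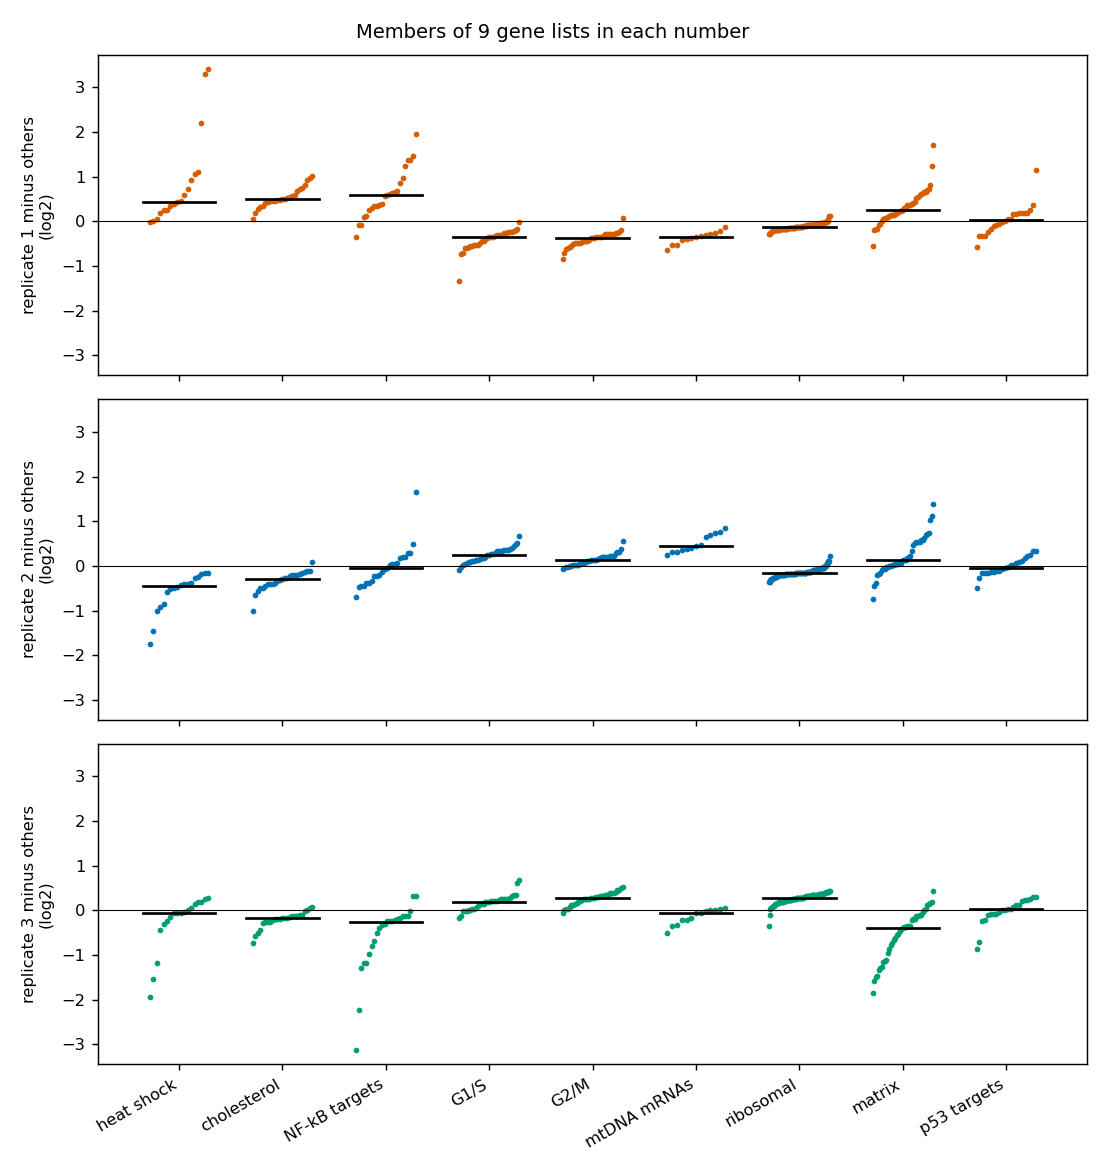
Log2 difference of each replicate number from the mean of the other 2 for every tested member of 9 gene lists, sorted within a list; black bars are list medians. Replicate 1 has heat shock, cholesterol and NF-kB genes above and cell cycle genes below 0, replicate 2 has mitochondrially encoded mRNAs above 0, and replicate 3 has ribosomal genes above (median 0.27) and matrix genes below (median -0.39).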

How the data were processed

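RNA of 6 libraries was sequenced, per the labels; these name poly(A) RNA as the molecule, but the protocol leaves poly(A) enrichment and rRNA depletion side by side. The authors deposited raw gene counts (58735 genes) and FPKM values, which divide each count by the gene length and the library total. The submitters' processing notes name DESeq2 and the build GRCh38.p12. Neither aligner nor counting tool nor strand setting is stated in the sources used, and overlapping genes are therefore uncertain.

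From the counts, genes passing filterByExpr (minimum count 10) by siRNA group, 15768 in all, were fitted in edgeR 4.0.16 (R 4.3.3) with TMM scaling, a term for each replicate number and 1 for siUAP1, which leaves 2 residual degrees of freedom. The quasi-likelihood test was used with Benjamini-Hochberg adjustment over all genes tested at 0.05. CPM values use TMM-scaled totals, and log2 CPM a prior count of 2. The rule of lying above or below both other numbers, and the offsets for GC content and length, were added after seeing the data. Totals were 21267240 to 25972582 counts; intervals from such counts cover counting error only.

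Genes were named by a rule: for each number and direction the 6 largest and the 3 of smallest p among protein-coding genes called in both tests, with a mean of at least 5 CPM and both libraries beyond the other 4, and up to 4 called members of smallest p from each of 38 gene lists. Some are left out of the text. The replicate numbers, genes and lists were chosen with earlier results of these data known. Tested on simulated data for differences between replicate numbers over 15768 genes, the F test recovered 65% of 100 genes changed 1.5-fold and 78% of 100 changed 2-fold, with 11 false calls. The simulated counts held no siRNA effect and no other changed genes, and took each gene's spread from the fit to these data. Recovery and false calls in the real data, where 7232 genes were called, can differ.

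Libraries with the same number deviated together from their group means, with r of 0.552, 0.454 and 0.584 for numbers 1, 2 and 3, against -0.434 to -0.0893 for other pairs. Deviations from a group mean cancel out within the group, so the negative sign of the other pairs follows in part from the calculation. Within a siRNA group, none of the 6 pairs of libraries agreed within sampling noise (chi-square per degree of freedom of 23.9 to 41.3); pairs across groups were not compared in this way. Alternatives were other scalings and filters, DESeq2 1.42.0, limma 3.58.1 on log2 FPKM and on counts, fits without the siRNA term, and each library left out. Promoter sequences are from RefSeq (GRCh38.p14).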

Additional observations from a re-analysis of the deposited data

How the results depend on the processing

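The 120 genes tried, which include those given with a test, kept their direction under each alternative that tested them; with DESeq2, voom, other scalings or the offsets for GC content and length, 120 of 120 also stayed past the threshold. The fit with no siRNA term ended 15 of these calls, log2(FPKM + 0.1) 14 of 111, and FPKM with no filter all 120. Leaving out 1 library ended the call of MT-RNR2 and ATP5F1C alone. The counts of calls were less stable. The F test called 7232 genes, DESeq2 4227 (of which 4223 were shared), the fit with no siRNA term 1487, limma 3294 on log2(FPKM + 1) and 1871 on log2(FPKM + 0.1), and 4805 to 6796 when 1 library was left out. In the same order of settings (DESeq2, no siRNA term, both FPKM fits, lowest and highest with 1 library left out), replicate 1 against the others had 3119, 1488, 2886, 2222, 3412 and 4875 calls. Replicate 2 had 1628, 198, 602, 107, 1649 and 3735. Replicate 3 had 2769, 968, 2205, 1313, 1930 and 5262. Replicate 2 against 1, with 4124 in the main fit, had 2252, 642, 1807, 1042, 2563 and 3723. Replicate 3 against 1, with 5723, had 3422, 1749, 3300, 2492, 3116 and 5878. Replicate 3 against 2, with 3714, had 1805, 268, 458, 196, 1342 and 4500; scaled by library totals alone it had 1355 higher and 2214 lower, against 1892 and 1822. With DESeq2, replicates 1, 2 and 3 lay above both others in 695, 189 and 496 genes and below both in 660, 234 and 541. The cause was not tested. On FPKM with no filter, limma called 0 genes by the F test (7708 of 31032 at an unadjusted p under 0.05), 0, 1 and 0 for replicates 1, 2 and 3, and 1, 0 and 2 for the pairs 2 against 1, 3 against 1 and 3 against 2. Unadjusted, the contrasts held 5397 to 7126 genes.

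The replicate number as a block is part of the main fit. The residual biological coefficient of variation was 0.0539 with it, 0.178 with no replicate block, and 0.0461 to 0.0591 with 1 library left out. The median share of variance of the number was 65.6%, and 70.3% for genes with a mean of at least 5 CPM and 68.4% on log2(FPKM + 1). With 2 libraries per number a gene's own spread rests on 2 residual degrees of freedom, 1 when a library is left out. The quasi-likelihood test of the main fit adds 22.5 prior degrees of freedom, drawn from the spread across all genes. Most of the spread behind each p-value is thus shared between genes and not measured on the gene itself. Genes of few counts were not tested.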
